A study of Mus musculus with 8 samples.

Results

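The genes described here are 49 components of the DNA replication machinery, taken by their symbols from a count table of 39179 mouse genes. They cover the origin recognition complex, the factors that load and start the MCM helicase, the helicase itself, the replicative polymerases with their clamp and clamp loader, the single-strand binding protein RPA, the enzymes that finish the lagging strand and those that make deoxynucleotides. Each symbol was found, and all 49 genes passed the filter on low counts. They were measured as polyA RNA in mouse pancreatic epithelial cancer cells of strain FVB/B6 mix, whose genotype includes p48Cre, ROSA_rtTAL+ and p53L+. By these allele names, Cre is driven from p48 (Ptf1a) sequence in the pancreatic lineage, and a tetracycline-controlled activator is expressed from the ROSA locus. The green-labelled cancer cells had been cultured for 72 h with red-labelled pancreatic stellate cells in 0.5% dialyzed serum, and were then sorted away from them. Of the 8 libraries, 4 came from co-cultures given 20 µg/mL of a neutralizing antibody against the ligand SHH (sonic hedgehog), and 4 from co-cultures without it. Both arms share the genotype, the stellate cells and the medium. The labels call the 4 samples biological and name no control antibody.

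Before S phase the origin recognition complex marks replication origins, where CDC6 and CDT1 load the ring of MCM2 to MCM7 onto DNA. The kinase CDC7 with DBF4, and then CDC45 and GINS, turn that ring into an active helicase, and polymerases alpha, delta and epsilon copy the unwound strands. Many of these genes are transcribed around the start of S phase under E2F transcription factors, so their RNA also follows how many cells are cycling. In a bulk sample a larger share of cells in S phase and more RNA per cell cannot be told apart.

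With the SHH antibody 11 of the 49 replication genes rose and 0 fell (edgeR, adjusted p under 0.05 over the 13626 genes tested). The 11 were Mcm4, Mcm5, Mcm6, Pola1, Rrm2, Rrm1, Lig1, Fen1, Cdc6, Rpa2 and Tyms, and their folds lay between 1.13 and 1.25. Of all genes tested 4.53% were called higher and 3.87% lower, and of the 9436 tested genes within the members' range of mean expression 5.17% were called higher. At an unadjusted p under 0.05, 20 members were higher and 0 lower. Of all 13626 genes tested, 2923 had an unadjusted p under 0.05, in either direction. DESeq2 called 8 members higher and limma voom 12, each with 0 lower. The median log2 fold change was 0.13 over the 49 genes and -0.0044 over all genes tested, and 83.7% of the members had a positive value against 48.5% of all genes. In 14 of the 49 genes every antibody library lay above every library without antibody, which was so for 7.71% of all genes tested.

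Libraries without antibody differed among themselves more than antibody libraries did. Between replicates, the chi-square of counts over its degrees of freedom was 1.72 to 3.70 with antibody. Without antibody it was 9.26 to 11.2 for replicate 1 against the others, 3.93 to 4.61 for replicate 4 against replicates 2 and 3, and 1.79 between replicates 2 and 3. The count of members called higher was 7, 6 and 6 on leaving out antibody replicate 1, 2 or 3, and 6 on leaving out replicate 4 without antibody. Leaving out both replicates 1 and 4 without antibody gave 8 members higher and 2 lower, with 5 of the 11 kept: Mcm4, Mcm5, Mcm6, Pola1 and Rrm2. Over the whole table that fit called 2263 genes in either direction, against 1144 with all libraries. It kept only replicates 2 and 3 without antibody, the most alike pair of that arm. The choice made the spread small, so its adjusted p-values, here and below, may be too low.

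**Figure D1:**
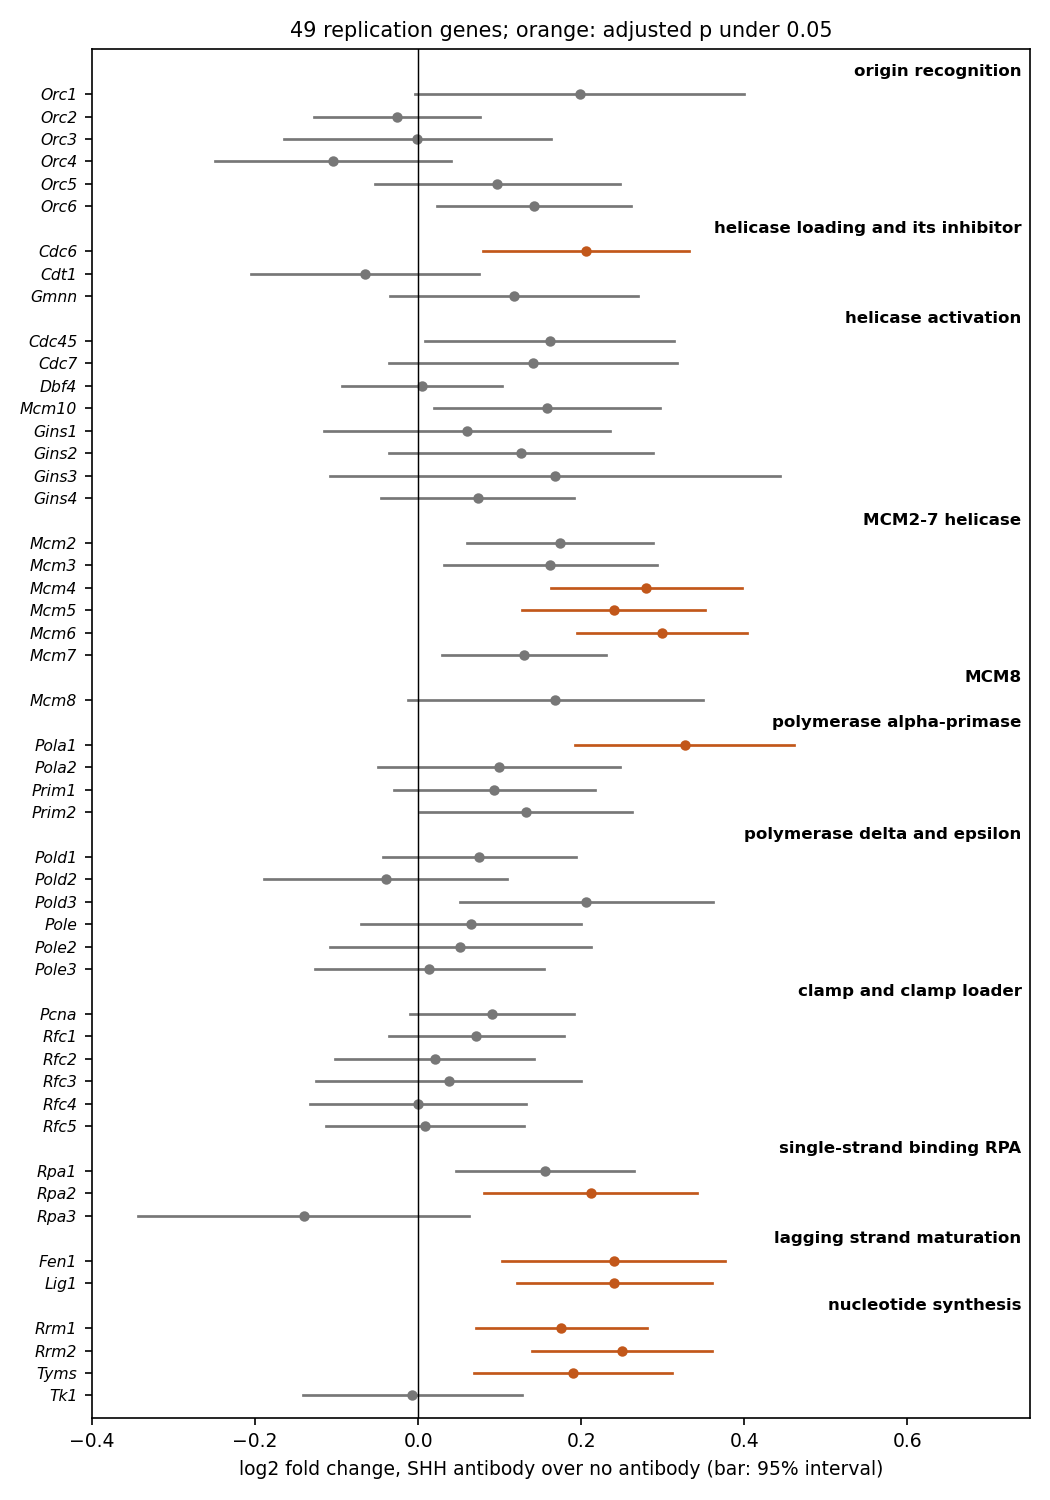
Log2 fold change (SHH antibody over no antibody, horizontal axis) of the 49 replication genes by role, with 95% intervals from 4 libraries per arm; orange marks the 11 genes with adjusted p under 0.05. All 6 MCM2-7 genes lie to the right of 0, and the 5 clamp loader genes lie between -0.00028 and 0.071.

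Promoters are shown for 4 of the 5 genes that rose in all 21 alternative analyses. Mcm4, the other, had no matched RefSeq window. Of the 4 shown, 3 hold words of the E2F site and Rrm2 holds none of those words. Each line is the 180 bases before the RefSeq start on the gene's strand (GRCm38.p6). Capitals mark E2F words (TTTGGCGC, TTTCCCGC, TTTCGCGC or TTTGCCGC) and the CCAAT box (CCAAT), each on either strand, and overlapping words run together. The windows are chr1:128359706-128359885 (minus strand) for Mcm6, chr8:75109329-75109508 (plus strand) for Mcm5, chrX:93632156-93632335 (minus strand) for Pola1 and chr12:24708074-24708253 (plus strand) for Rrm2.
Mcm6: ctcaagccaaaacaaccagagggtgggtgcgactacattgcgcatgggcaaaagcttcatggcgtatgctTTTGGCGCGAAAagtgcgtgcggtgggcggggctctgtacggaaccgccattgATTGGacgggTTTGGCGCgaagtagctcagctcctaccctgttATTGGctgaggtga
Mcm5: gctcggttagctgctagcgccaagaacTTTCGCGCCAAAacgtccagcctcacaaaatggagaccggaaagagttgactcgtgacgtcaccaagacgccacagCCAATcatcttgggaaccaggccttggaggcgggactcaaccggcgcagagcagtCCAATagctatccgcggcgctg
Pola1: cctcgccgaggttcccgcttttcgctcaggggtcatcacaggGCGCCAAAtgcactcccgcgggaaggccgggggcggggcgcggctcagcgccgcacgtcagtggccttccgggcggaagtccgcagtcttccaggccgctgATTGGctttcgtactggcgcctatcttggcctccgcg
Rrm2: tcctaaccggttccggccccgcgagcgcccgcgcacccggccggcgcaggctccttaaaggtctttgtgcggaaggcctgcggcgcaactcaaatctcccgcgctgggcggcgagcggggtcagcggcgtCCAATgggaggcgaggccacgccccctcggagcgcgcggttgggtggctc

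In Mcm6 the E2F words began at positions -110, -106 and -47 from the start, in Mcm5 at -153 and -149, and in Pola1 at -138. RefSeq windows from 250 bases before to 50 after the start were matched for 41 of the 49 genes. An E2F word was in 16 of the 41 (39.0%) and in 2.61% of the 27025 genes with a window, and in 5 of the 10 matched genes that rose and 11 of the 31 others. The CCAAT box was in 24 of the 41 (58.5%) and in 41.1% of all genes. The CHR element (TTTGAA or TTCGAA), known from genes of G2 and mitosis, was in 9 of the 41 and in 21.7% of all genes. These are matches of letters, and binding was not measured.

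The MCM2-7 helicase, which unwinds DNA at the fork, had 3 of its 6 genes higher with antibody, and all 6 had positive log2 fold changes, from 0.13 to 0.30. Summed over the 6 genes the level was 921.1, 922.3, 920.3 and 912.2 CPM (counts scaled to library size, with TMM factors) in antibody replicates 1 to 4, against 708.4, 841.0, 837.7 and 781.6 CPM in replicates 1 to 4 without antibody. The antibody libraries were close to each other, and replicate 1 without antibody was lowest. Mcm6 (ENSMUSG00000026355, chromosome 1, 128331591 to 128359656, GRCm38) had 168.1, 168.4, 173.9 and 164.2 CPM with antibody, against 126.9, 147.9, 140.9 and 133.3 CPM without. The arms were apart by more than the range of the antibody arm (fold 1.23, 95% interval 1.145 to 1.323, adjusted p = 0.000442). Mcm4 (ENSMUSG00000022673, chromosome 16, 15623897 to 15637400) had 197.9, 205.8, 208.9 and 205.9 CPM with antibody, against 146.1, 170.2, 181.6 and 176.6 CPM without. Every antibody library was above the other arm (fold 1.21, 95% interval 1.120 to 1.317, adjusted p = 0.00251). Mcm5 (ENSMUSG00000005410, chromosome 8, 75109528 to 75128439) had 97.6, 96.6, 91.2 and 95.1 CPM with antibody, against 74.5, 85.7, 86.0 and 76.8 CPM without. Its arms did not overlap (fold 1.18, 95% interval 1.092 to 1.276, adjusted p = 0.00649).

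The other 3 subunits did not pass the test. Mcm2 had 136.0, 133.4, 126.6 and 128.9 CPM with antibody, against 105.0, 128.0, 119.3 and 113.6 CPM without (fold 1.13, 95% interval 1.043 to 1.221, adjusted p = 0.0519). The arms overlapped through replicate 2 without antibody, and on leaving out that library Mcm2 was called higher (adjusted p = 0.0155). Mcm7 had 153.2, 154.6, 154.1 and 154.1 CPM with antibody, against 130.1, 150.1, 144.4 and 138.9 CPM without (fold 1.09, 95% interval 1.020 to 1.173, adjusted p = 0.107). Its arms did not overlap, but it lies opposite Cops6 and Ap4m1 and has a pseudogene, Gm5487, 97.7% identical over 2157 aligned bases and not analysed here, so its counts are uncertain, the more since the strand setting of the counting was not given in these sources. Mcm3 had 168.3, 163.5, 165.7 and 164.0 CPM with antibody, against 125.6, 159.0, 165.4 and 142.3 CPM without (fold 1.12, 95% interval 1.022 to 1.225, adjusted p = 0.123). Replicate 3 without antibody reached the level of the antibody arm, replicate 2 came close to it, and replicates 1 and 4 were lower.

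In RPKM, the deposited level per gene length and library total, the subunits ranged from 27.9 ± 0.874 RPKM (Mcm5) to 58.3 ± 1.51 RPKM (Mcm6) with antibody, and from 23.5 ± 1.84 RPKM (Mcm5) to 49.3 ± 6.21 RPKM (Mcm3) without (SD, n = 4 each). Mcm6, Mcm4 and Mcm3 were the most abundant in both arms, and without antibody their means differed by less than the SD of each. Mcm8, a related helicase that is not in the ring and is known for recombination, had 4.21 ± 0.117 RPKM with antibody and 3.75 ± 0.390 RPKM without (adjusted p = 0.274).

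**Figure D2:**
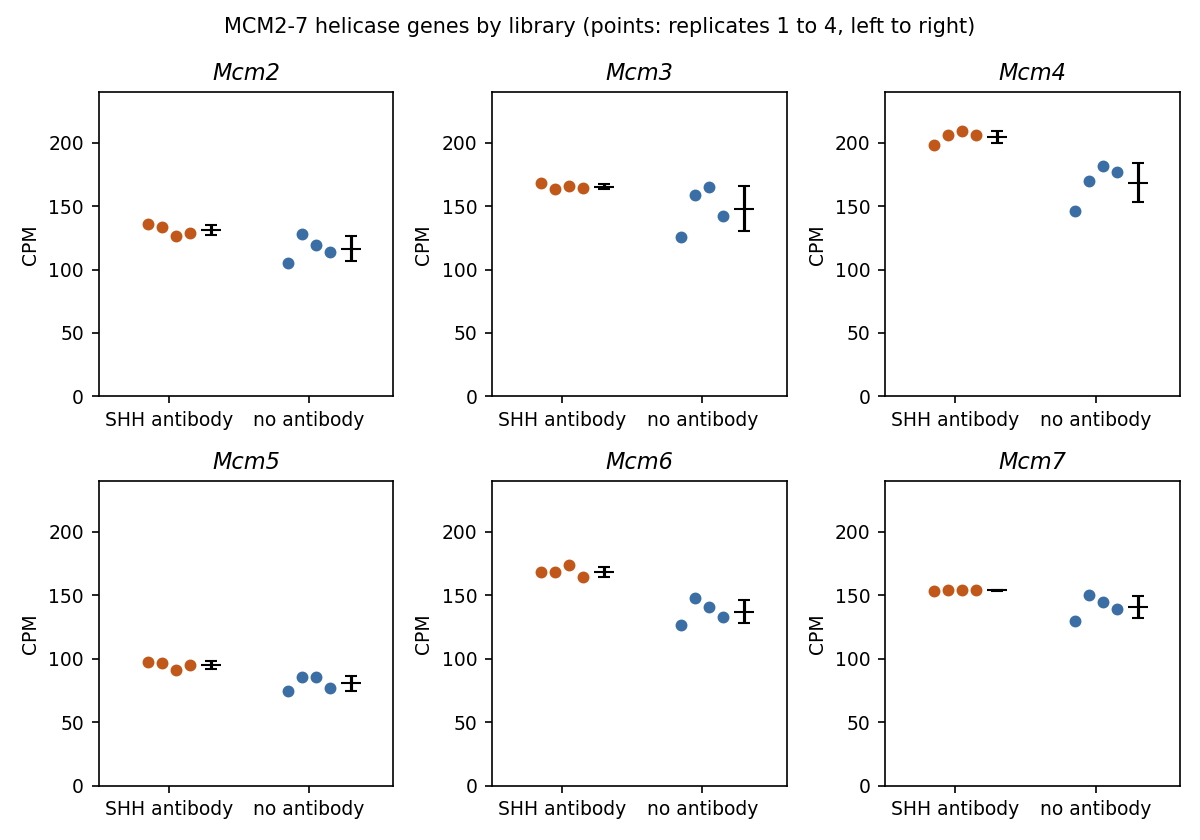
Level in CPM (counts scaled to library size; vertical axis, from 0) of the 6 MCM2-7 genes, SHH antibody left and no antibody right in each panel; points are replicates 1 to 4 from left to right, and bars the mean ± SD of 4 libraries. Antibody libraries lie close together, and replicate 1 without antibody is the lowest point in every panel.

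Of the 6 origin recognition genes 0 were called by edgeR, DESeq2 or voom, and 1, Orc6, had an unadjusted p under 0.05. Log2 fold changes ran from -0.10 (Orc4) to 0.20 (Orc1), with 3 positive and 3 negative. Orc1, the large ATPase subunit, had 14.5, 14.1, 14.1 and 14.6 CPM with antibody, against 12.5, 11.5, 15.2 and 11.02 CPM without (fold 1.15, 95% interval 0.998 to 1.319, adjusted p = 0.242). Replicate 3 without antibody was above all antibody libraries. Orc6 had 55.6, 59.6, 60.8 and 60.1 CPM with antibody, against 58.8, 51.7, 51.3 and 51.8 CPM without (fold 1.10, 95% interval 1.016 to 1.198, adjusted p = 0.142). Here replicate 1 without antibody stood above the rest of its arm, and without it Orc6 was called higher (adjusted p = 0.0190), as it was by voom with sample weights (adjusted p = 0.0283). Per length, Orc6 was the most abundant of the complex, at 35.8 ± 1.28 RPKM with antibody and 32.2 ± 1.94 RPKM without, and Orc1 the least, at 4.13 ± 0.0806 RPKM with antibody and 3.59 ± 0.536 RPKM without (SD, n = 4 each).

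Of the 3 genes of helicase loading and its inhibitor, Cdc6 rose. Cdc6, the ATPase that loads the ring, had 40.0, 42.6, 44.2 and 43.4 CPM with antibody, against 33.8, 39.4, 38.0 and 36.8 CPM without (fold 1.15, 95% interval 1.057 to 1.259, adjusted p = 0.0381). Its arms were apart by little. The call was lost with DESeq2 (adjusted p = 0.0539), in 6 of the 8 leave-one-out fits, and on adding the counts of its pseudogene Gm9430 (adjusted p = 0.0554). Cdt1, its partner in loading, had 54.0, 54.6, 57.1 and 59.3 CPM with antibody, against 54.7, 59.6, 68.6 and 53.3 CPM without (fold 0.96, 95% interval 0.868 to 1.053, adjusted p = 0.638). The arms overlapped, and leaving out both replicates 1 and 4 without antibody made Cdt1 lower (log2 fold change -0.19, adjusted p = 0.0251). Gmnn, which encodes geminin, the inhibitor of CDT1, had 29.9, 30.5, 29.4 and 32.6 CPM with antibody, against 30.5, 25.0, 26.1 and 30.4 CPM without (fold 1.09, 95% interval 0.977 to 1.206, adjusted p = 0.381). The same omission made Gmnn higher (log2 fold change 0.26, adjusted p = 0.0217).

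Of the 8 genes of helicase activation 0 were called by edgeR, DESeq2 or voom, and 2, Cdc45 and Mcm10, had an unadjusted p under 0.05. All 8 values were positive, from 0.0048 (Dbf4) to 0.17 (Gins3). Cdc45, a core part of the active helicase whose gene lies opposite Ufd1l, had 35.2, 35.7, 36.0 and 36.4 CPM with antibody, against 29.5, 38.6, 30.9 and 29.9 CPM without (fold 1.12, 95% interval 1.006 to 1.243, adjusted p = 0.202). Only replicate 2 without antibody lay above the antibody arm, and leaving it out made Cdc45 higher (adjusted p = 0.0167) and likewise Mcm10 (adjusted p = 0.0268), a factor of helicase activation. Dbf4, the activator of CDC7, had 17.3 ± 0.651 RPKM with antibody and 17.1 ± 0.411 RPKM without, with a 95% interval of the fold of 0.937 to 1.074. Among the GINS genes the level per length ran from 3.64 ± 0.366 RPKM (Gins3) to 34.6 ± 1.48 RPKM (Gins4) with antibody, and from 3.26 ± 0.698 to 32.7 ± 1.68 RPKM without (SD, n = 4 each).

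Of the 4 genes of polymerase alpha and primase, which start each new strand, Pola1 rose. Pola1, the catalytic subunit (ENSMUSG00000006678, chromosome X, 93304767 to 93632155), had 55.6, 59.8, 56.8 and 54.5 CPM with antibody, against 38.9, 45.5, 49.3 and 47.4 CPM without. The arms did not overlap, and the fold was the largest of the 49 (fold 1.25, 95% interval 1.142 to 1.377, adjusted p = 0.00226). The accessory subunit Pola2 had a value of 0.099 (adjusted p = 0.463), and the primase subunits Prim1 and Prim2 had 0.093 (adjusted p = 0.395) and 0.13 (adjusted p = 0.224) on the log2 scale. Of 6 genes of polymerases delta and epsilon 0 were called by edgeR, DESeq2 or voom, and 1, Pold3, had an unadjusted p under 0.05. Pold3, an accessory subunit of polymerase delta, had 24.5, 22.8, 23.0 and 24.9 CPM with antibody, against 21.7, 19.0, 19.3 and 22.05 CPM without (fold 1.15, 95% interval 1.036 to 1.285, adjusted p = 0.0977). Its arms did not overlap, and voom with sample weights called it. Pold2, another accessory subunit, had 52.4, 49.9, 58.8 and 52.3 CPM with antibody, against 47.4, 60.5, 60.1 and 52.2 CPM without, and leaving out both replicates 1 and 4 without antibody made it lower (log2 fold change -0.18, adjusted p = 0.0412, against -0.040 with all libraries). The catalytic subunits Pold1 and Pole had log2 fold changes of 0.075 and 0.065.

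Of the 6 genes of the clamp and its loader 0 were called by edgeR, DESeq2 or voom, and 0 had an unadjusted p under 0.05. The loader genes Rfc1 to Rfc5 ran from -0.00028 to 0.071 on the log2 scale, and the 95% interval of the fold of Rfc4, which lies opposite the far more abundant Eif4a2, was 0.912 to 1.096. Pcna, the sliding clamp, had 70.2, 70.9, 72.9 and 69.4 CPM with antibody, against 67.9, 67.0, 67.3 and 64.3 CPM without. Its arms did not overlap, with a small difference (fold 1.06, 95% interval 0.993 to 1.141, adjusted p = 0.296). Pcna is uncertain because Pcna-ps2, a processed copy on chromosome 19 that is 99.2% identical over 781 aligned bases, held more counts. Pcna-ps2 had 116.0, 116.3, 128.3 and 128.2 CPM with antibody, against 111.8, 106.2, 107.0 and 105.1 CPM without and was called higher (fold 1.14, 95% interval 1.057 to 1.221, adjusted p = 0.0237). With both added together, a choice made after seeing the data, Pcna was called higher (log2 fold change 0.15, adjusted p = 0.0472).

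Of the 3 subunits of RPA, which coats single-stranded DNA, Rpa2 rose. Rpa2 had 38.9, 42.7, 38.8 and 37.2 CPM with antibody, against 32.0, 36.5, 33.8 and 34.3 CPM without (fold 1.16, 95% interval 1.058 to 1.267, adjusted p = 0.0393). The arms were narrowly apart, and the call was lost with DESeq2 (adjusted p = 0.0561) and in 6 of the 8 leave-one-out fits. Rpa1, the large subunit, had 159.8, 154.8, 169.7 and 159.0 CPM with antibody, against 133.6, 154.5, 152.1 and 138.0 CPM without, also narrowly apart (fold 1.11, 95% interval 1.033 to 1.202, adjusted p = 0.0720). For Rpa3, the small subunit, the log2 fold change was -0.14 (adjusted p = 0.447).

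Both genes of lagging strand maturation rose. Lig1, the ligase that joins Okazaki fragments, had 67.0, 69.8, 67.4 and 67.8 CPM with antibody, against 51.9, 63.0, 60.2 and 55.8 CPM without (fold 1.18, 95% interval 1.087 to 1.284, adjusted p = 0.0103). Its arms were apart, and it stayed called in all 8 leave-one-out fits. Fen1, the nuclease that trims the fragments, had 65.0, 63.1, 66.7 and 61.0 CPM with antibody, against 47.1, 61.5, 56.6 and 52.4 CPM without (fold 1.18, 95% interval 1.074 to 1.298, adjusted p = 0.0248). The arms overlapped through replicate 2 without antibody, and the call was lost in 4 of the 8 leave-one-out fits. Fen1 lies opposite Tmem258, and Lig1 opposite 6330408A02Rik, so part of their counts is uncertain.

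Of the 4 genes of nucleotide synthesis 3 rose. Rrm2, the S-phase subunit of ribonucleotide reductase (ENSMUSG00000020649, chromosome 12, 24708241 to 24714146), had 243.5, 247.9, 252.9 and 252.1 CPM with antibody, against 189.3, 231.3, 214.9 and 203.5 CPM without. The arms did not overlap (fold 1.19, 95% interval 1.101 to 1.284, adjusted p = 0.00404), and Rrm2 was the most abundant of the 49 genes per length, at 90.1 ± 1.25 RPKM with antibody and 75.4 ± 6.71 RPKM without (SD, n = 4 each). Rrm1, the large subunit of that enzyme, had 156.8, 157.2, 161.2 and 152.4 CPM with antibody, against 126.3, 144.5, 146.5 and 138.8 CPM without (fold 1.13, 95% interval 1.051 to 1.214, adjusted p = 0.0326). Its arms were apart, but the call was lost in 5 of the 8 leave-one-out fits. Tyms, thymidylate synthase, had 60.5, 63.1, 57.8 and 58.7 CPM with antibody, against 52.0, 57.1, 54.3 and 47.9 CPM without (fold 1.14, 95% interval 1.048 to 1.241, adjusted p = 0.0471). Of the 11 calls it was nearest to the threshold. DESeq2 (adjusted p = 0.0580) and the fit blocked on replicate number (adjusted p = 0.0504) did not make it, nor did 6 of the 8 leave-one-out fits. Stretches of Tyms also match several other transcripts, among them Map3k2 (95.5% over 357 aligned bases) and Reep3 (97.7% over 355). Rrm2 has a pseudogene, Gm48455, 95.5% identical over 419 aligned bases and not analysed here. Part of the counts of Tyms and Rrm2 is uncertain to that extent. Tk1, the salvage enzyme thymidine kinase, had 63.2, 62.9, 59.1 and 61.5 CPM with antibody, against 64.5, 66.3, 65.8 and 52.5 CPM without, with overlapping arms (fold 0.99, 95% interval 0.907 to 1.092, adjusted p = 0.967).

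**Figure D3:**
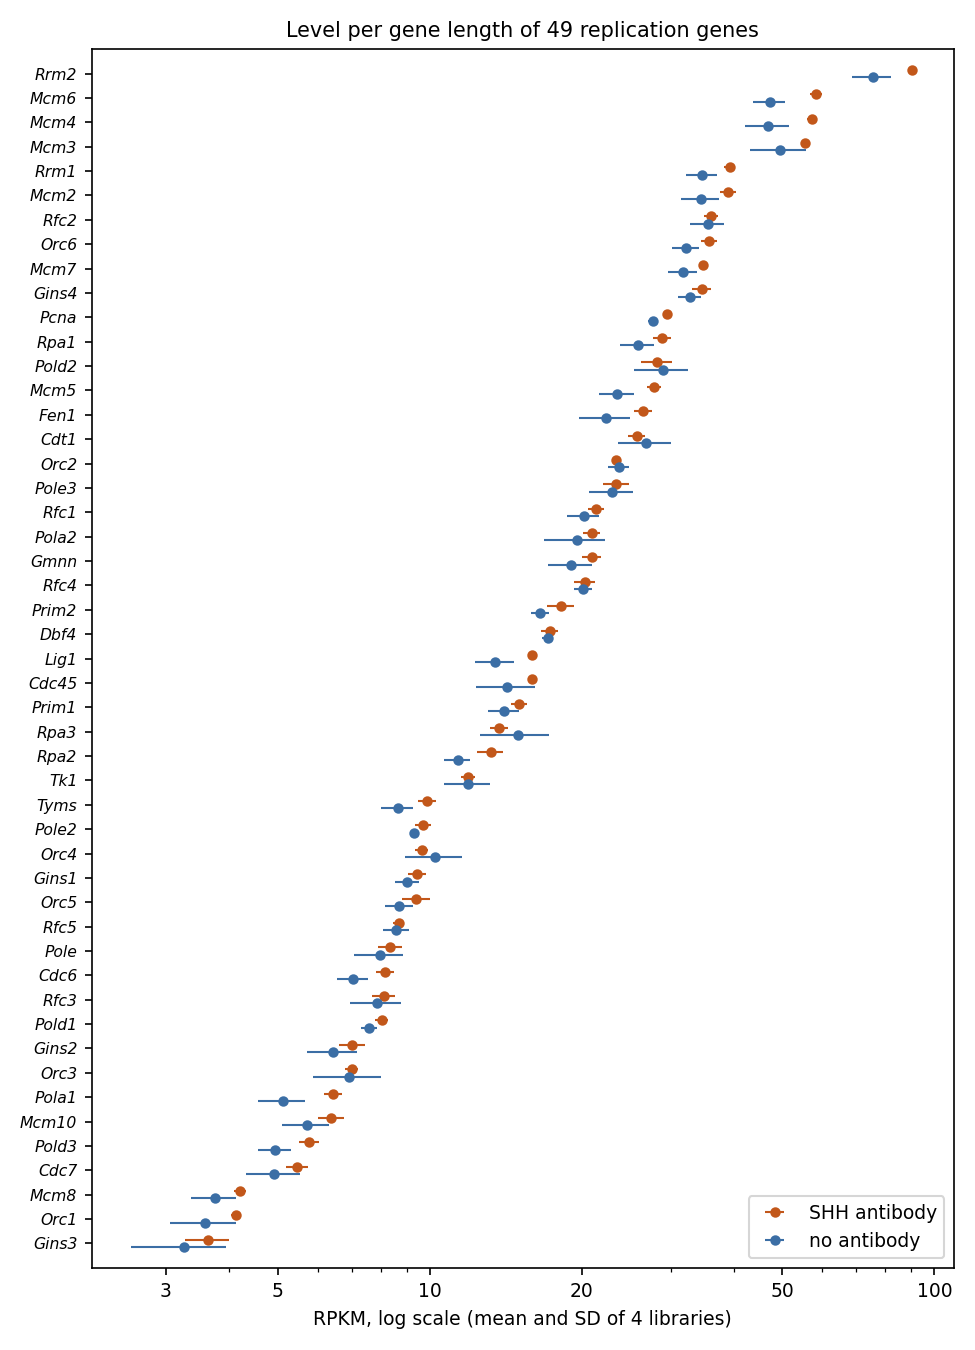
Level per gene length (RPKM, log axis) of the 49 replication genes, ordered by the mean with SHH antibody; points and bars are the mean ± SD of 4 libraries, orange with SHH antibody and blue without. Rrm2 is the highest and Gins3 the lowest in both arms.

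In all, 10 of the 49 genes overlap an expressed protein-coding gene on the opposite strand, and without the strand setting shared reads cannot be told apart. Besides Mcm7, Fen1 and Lig1 these are Rfc4 (opposite Eif4a2), Rfc5 (Wsb2), Cdc45 (Ufd1l), Orc2 (Nif3l1), Orc4 (Acvr2a and Mbd5), Gins2 (Gse1) and Tk1 (Afmid), and their values are uncertain to that extent. For Rfc4 the partner had a mean of 4818.5 counts and Rfc4 425.6.

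Across libraries the 49 genes differed between the arms and also within the arm without antibody. Their median deviation from the mean of that arm, on the log2 scale, was 0.12, 0.13, 0.13 and 0.11 in antibody replicates 1 to 4, against -0.051, 0.078, 0.039 and -0.041 in replicates 1 to 4 without antibody. Replicates 2 and 3 without antibody were nearer to the antibody libraries than replicates 1 and 4. The 49 genes held 0.337% to 0.345% of all counts with antibody and 0.293% to 0.322% without. The lowest of the 8 libraries was an antibody library for 1 gene and a library without antibody for 48, replicate 1 in 21 cases and replicate 4 in 12. The highest was an antibody library for 32 genes. Such counts were not made over all genes tested, so they have no background here. An arm with more spread holds more of the extremes for any set of genes. The median coefficient of variation of the 49 genes was 3.89% among antibody libraries and 8.29% among those without. Over all genes tested the spread also differed. The edgeR biological coefficient of variation (square root of the common dispersion) was 3.25% with antibody and 7.01% without.

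**Figure D4:**
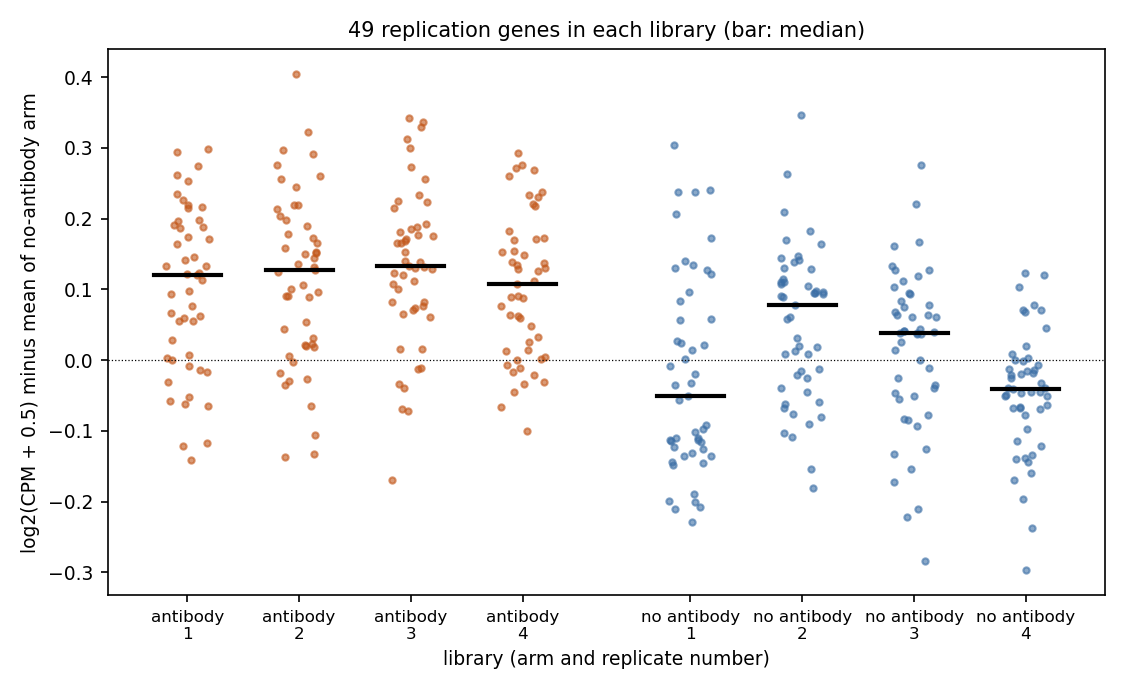
Deviation of the 49 replication genes (points) from the mean of the no-antibody arm, in log2(CPM + 0.5), by library, with SHH antibody left and no antibody right; bars are medians. The medians lie between 0.11 and 0.13 in antibody libraries, against -0.051 to 0.078 in the others.

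On leaving out both replicates 1 and 4 without antibody, the median of the 49 log2 fold changes was 0.071, against 0.13 with all libraries. The genes still higher were Mcm6 (0.22, adjusted p = 0.000201), Mcm4 (0.22, adjusted p = 0.000229), Pola1 (0.26, adjusted p = 0.00321), Rrm2 (0.16, adjusted p = 0.00426) and Mcm5 (0.15, adjusted p = 0.0333). Orc6 (0.19, adjusted p = 0.0196), Gmnn and Pold3 (0.31, adjusted p = 0.0138) were called higher in addition, and Cdt1 and Pold2 lower. Calls also became more frequent over the whole table, with 2263 genes called against 1144 with all libraries. Only replicates 2 and 3 without antibody, the most alike pair of that arm, were left, so these adjusted p-values may be too low.

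**Figure D5:**
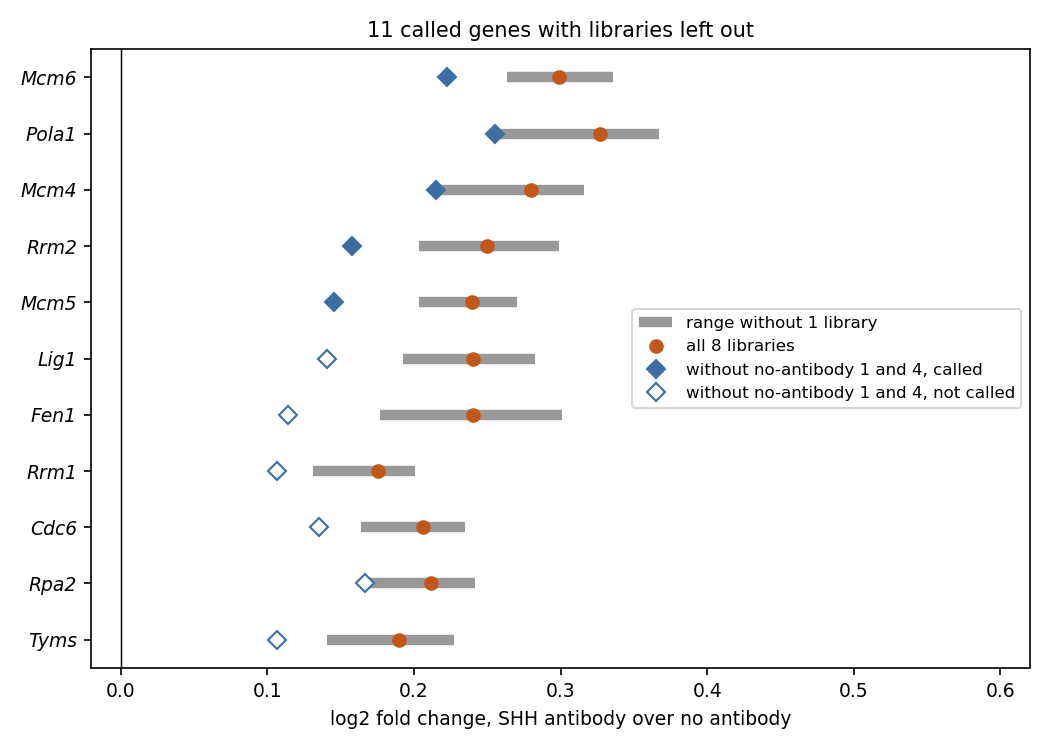
Log2 fold change (SHH antibody over no antibody, horizontal axis) of the 11 genes that rose: all 8 libraries (orange), the range with 1 library left out (grey), and without replicates 1 and 4 of no antibody (diamonds, filled where adjusted p is under 0.05). All values lie above 0, and 5 of the 11 diamonds are filled.

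Other genes of the same processes were read from the same fit. Of 22 further cofactors of initiation and the fork 3 rose and 2 fell, with a median log2 fold change of 0.063. Wdhd1, which links polymerase alpha to the helicase, had 44.2, 45.7, 43.8 and 45.6 CPM with antibody, against 33.7, 36.1, 33.4 and 34.0 CPM without (fold 1.31, adjusted p = 7.20e-05). Pold4, the smallest subunit of polymerase delta, had 25.2, 24.1, 29.1 and 23.7 CPM with antibody, against 34.8, 34.4, 32.9 and 33.1 CPM without (fold 0.76, adjusted p = 0.000672). In both genes the arms did not overlap, in opposite directions. Clspn, the fork protein claspin, rose (fold 1.27, adjusted p = 0.00182), as did the nuclease gene Dna2 (fold 1.18), and Mtbp, an origin firing factor, fell (fold 0.84).

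Of 13 genes of chromatin assembly and maintenance 4 rose and 0 fell, with 0 lower also by DESeq2 and voom and a median of 0.12. They were Uhrf1, which maintains DNA methylation (0.30, adjusted p = 0.00199), the histone chaperone gene Nasp (0.21, adjusted p = 0.0158), Hells (0.19, adjusted p = 0.0324) and Slbp (0.18). Leaving out antibody replicate 1, 2 or 3 gave 2 higher calls in this list, and leaving out antibody replicate 4 gave 1. Of 16 further genes of nucleotide supply 1 rose (6.25%, against 4.53% of all genes tested), the dUTPase gene Dut (0.18, adjusted p = 0.0371). The list had 8 positive and 8 negative values, with a median log2 fold change of -0.00051. The next by p, Umps (0.15) and Rrm2b (-0.19), did not pass. The Dut call was lost with the replicate block (0 higher), and on leaving out antibody replicate 1, 2 or 3 or replicate 3 or 4 without antibody. Of 10 E2F and DP factor genes the repressors E2f8 (0.26, adjusted p = 0.0249) and E2f7 (0.26, adjusted p = 0.0378) rose and E2f5 fell (-0.23, adjusted p = 0.0280). These are log2 fold changes. Of the 2 higher calls among E2F factors 1 was left with the replicate block, 1 without replicate 1 or 2 of no antibody, and 0 without any of the 4 antibody libraries or without replicate 4 of no antibody; the lower call was lost without antibody replicate 1 or 3.

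Of 22 genes of G2 and mitosis 6 rose and 0 fell, with 0 lower also by DESeq2 and voom, a median log2 fold change of 0.13 and 20 positive values. Those with the smallest p were the cyclin gene Ccna2 (0.27, adjusted p = 0.000868), the proliferation marker gene Mki67 (0.25, adjusted p = 0.00275) and the spindle motor gene Kif11 (0.21, adjusted p = 0.0141). Their summed level was between 2502 and 2637 CPM with antibody and between 2141 and 2464 CPM without, lowest in replicate 1. Without antibody replicate 2 the number called higher was 2, and without antibody replicate 4 it was 3. The part of the cell cycle in the values of the replication genes was not tested.

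Of 12 epithelial and duct markers 11 could be tested: 2 rose, Epcam (25.0 ± 1.64 CPM with antibody and 20.6 ± 1.496 CPM without, adjusted p = 0.0220) and Cftr (22.4 ± 2.53 CPM with antibody and 13.4 ± 1.09 CPM without, adjusted p = 1.72e-05), 0 fell, and over the 11 there were 7 positive and 4 negative log2 fold changes, from -0.19 to 0.74. Krt8 had 1514.5 ± 38.6 CPM with antibody and 1416.8 ± 136 CPM without, and Krt19 1460.2 ± 70.5 CPM with antibody and 1290.0 ± 111 CPM without (SD, n = 4 each). Of 26 stellate and fibroblast markers 15 could be tested, 0 rose and 2 fell, Fbln2 (227.7 ± 11.6 CPM with antibody and 305.5 ± 15.9 CPM without) and Pdgfra (2.78 ± 0.489 CPM with antibody and 4.97 ± 0.888 CPM without). Over the 15 there were 8 positive and 7 negative log2 fold changes, with a median of 0.014. Dcn, Lum, Mfap4 and Tcf21 had 0 counts in every library. The summed stellate level, which includes Fbln2, was between 432.5 and 496.5 CPM with antibody and between 496.9 and 579.2 CPM without. The share of counts held by these markers differed between the arms (two-sided exact permutation p = 0.0286, adjusted 0.0429 over 3 measures). In CPM the arm means of Fbln2 lay further apart than those of the summed level, so the other markers together were not lower with antibody. The share without Fbln2 was not tested. Library totals were 14953255 to 15733280 counts with antibody and 10009711 to 14602784 without, and differed as well (exact permutation p = 0.0286, adjusted 0.0429). That p is the smallest that 70 assignments allow. The share of mitochondrially encoded mRNA, the third measure, was 3.94% to 4.77% with antibody, against 6.21% in replicate 1 and 4.10% to 4.55% in replicates 2 to 4 without (exact permutation p = 0.571, adjusted 0.571). Replicate 1 without antibody, the highest in that share, was also the lowest library for 21 of the 49 genes, a count not made over all genes. On leaving it out 10 members were called higher, 9 of them among the 11. After thinning to the smallest total 10 members were called higher, 8 of them among the 11. Markers of leukocytes, endothelial cells and acinar cells summed to at most 6.497, 14.3 and 3.75 CPM with antibody and 6.18, 12.9 and 4.71 CPM without. The part of stellate RNA in the values of the replication genes was not tested.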

How the data were processed

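Strand-specific polyA libraries with 101-base paired reads were made from sorted cells, per the labels' protocols. The submitters' processing notes name CASAVA 1.8.2, TopHat2 2.0.9 and GRCm38; the counting tool, its strand setting and the annotation release were not given in these sources. The authors deposited raw counts and RPKM values per gene for the 8 libraries. In 15265 of 15265 genes checked, deposited RPKM equalled the count over column total and a gene length whole within 0.01 bases.

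Arms follow the treatment label; "minus" in the titles marks the antibody. 1 further allele of the genotype, shared by both arms, is not reported here. Counts over the whole table were analysed in R 4.3.3 by the quasi-likelihood F test of edgeR 4.0.16, after filterByExpr and TMM normalization, and p-values were adjusted by Benjamini-Hochberg. Folds are antibody over no antibody. No replicates were alike enough to be 1 library. Near-identical copies were sought with blastn 2.17.0, and promoters come from RefSeq. The procedure was tested on simulated data. There it recovered 54% of genes changed 1.25-fold and 83.7% of those changed 1.5-fold, and 7.43% of its calls were false. The simulation gave both arms the same spread and no shifts of whole libraries. In the data the biological coefficient of variation was 3.25% with antibody and 7.01% without. The folds of the 11 called members lay between 1.13 and 1.25, so these rates may not hold for them.

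The members and lists were chosen with earlier results of these data known. By rule, values per library are given for MCM2-7, the 10 members with the smallest p and the 4 largest changes, and 3 genes are named per other list; others were chosen after their values were seen. Alternatives were scaling by RLE or by upper quartile, omitting or tightening the filter, a replicate block, DESeq2 1.42.0, limma 3.58.1 voom with and without sample weights, log2(RPKM + 1) and log2(RPKM + 0.1), thinning and leaving out libraries, and, added after seeing the data, adding counts of copies.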

Additional observations from a re-analysis of the deposited data

Results flagged for a closer look

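Each of the 49 genes was examined in both arms, 98 sets of 4 libraries, for a library far from the other 3. In 4 sets, all without antibody, there was one; chance gives about 1 in 20. Orc6 was at 58.8 CPM in replicate 1, with 51.8 CPM in the nearest library. Cdc45 was at 38.6 CPM in replicate 2, with 30.9 CPM in the nearest. Prim2 was at 34.5 CPM in replicate 2, with 32.2 CPM in the nearest. Tk1 was at 52.5 CPM in replicate 4, with 64.5 CPM in the nearest.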

How the results depend on the processing

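Of the 11 genes called higher, Mcm4, Mcm5, Mcm6, Pola1 and Rrm2 passed under all 21 alternatives, and all 11 kept their sign in each. Members called higher were 5 on both RPKM scales, log2(RPKM + 1) and log2(RPKM + 0.1), and 6 to 15 with 1 library left out. The median of the members was 0.094 to 0.15 with 1 library left out and 0.071 without both replicates 1 and 4 of no antibody, where 2 members were lower. Genes called over the whole table were 675 and 670 on the RPKM scales, 2263 without both libraries and 679 to 1485 with 1 left out. Higher calls in chromatin assembly were 1 and 1 on the RPKM scales, 2 with thinning and 1 to 5 with 1 library left out. In nucleotide supply they were 0 with the replicate block, on the RPKM scales and without both libraries, and 0 to 1 with 1 left out; 1 gene was lower without both libraries. Among E2F factors higher calls were 1 with the replicate block, voom with sample weights and thinning, 0 on the RPKM scales and without both libraries, and 0 to 2 with 1 left out, and lower calls 0 on the RPKM scales and 0 to 1 with 1 left out. In G2 and mitosis 2 were higher on the RPKM scales and 2 to 7 with 1 left out, and 2 were lower without both libraries. Fork cofactors had 5 higher without both libraries. The cause was not tested.

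Same-numbered libraries did not deviate together (correlations of -0.033, -0.036, 0.010 and 0.010 for replicates 1 to 4), so the numbers were not taken as pairs; with the replicate block 10 members were called higher, all among the 11.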
